A study of Mus musculus with 6 samples.

Results

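The transcripts described here belong to the Notch pathway in the ductus arteriosus (DA), the fetal artery that joins the pulmonary artery to the aorta. They are 10 genes of the 23997 in the deposited table, chosen by symbol and function and not by a rule on their values. Earlier results of these data were known when they were chosen. The 10 are the receptors *Notch1*, *Notch2*, *Notch3*, and *Notch4*, the ligands *Jag1*, *Jag2*, and *Dll4*, and the target genes *Hey1*, *Hey2*, and *Heyl*. All 10 were found in the table. Whole DA was taken from C57BL/6 mouse embryos at E17.5 without treatment, and RNA was sequenced in 3 libraries of wild-type embryos (WT0, WT1, and WT2) and 3 libraries of embryos with the genotype Prdm6f/f; SM22-Cre, labelled KO (KO0, KO1, and KO2). In the KO embryos both *Prdm6* alleles are floxed, and Cre-recombinase is driven in smooth muscle cells (SMCs) by the *SM22* promoter, so the endothelium and other cells of the vessel are not the intended site of deletion. The sources used here do not say how many embryos went into a library or whether the WT embryos carried Cre, so p values measure the spread between these libraries only.

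Notch receptors are single-pass membrane proteins that bind Jagged or Delta-like ligands on a neighbouring cell. Binding exposes the receptor to cleavage by ADAM proteases and then by γ-secretase, and the freed intracellular part enters the nucleus, where it joins the DNA-binding protein RBPJ and a Mastermind coactivator to activate genes of the Hes and Hey families of transcriptional repressors. In arteries *Notch3* is the characteristic receptor of SMCs, *Jag1* is made by both endothelium and SMCs and drives smooth muscle differentiation through *Notch3*, and *Notch1*, *Notch4*, and *Dll4* are characteristic of endothelium, where *Dll4* marks arterial and sprouting cells.

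The RBPJ motif is the sequence feature by which a Hey gene can answer the pathway, and the promoters of *Hey2* and of a related target, *Hes5*, are shown because both hold it and their transcripts lay at opposite ends of the scale in the DA. RefSeq promoter sequences (GRCm38.p6, the build of mm10), which run from 250 bases before to 50 bases after the start of each gene, were found for 8 of the 10 members, all but *Hey1* and *Heyl*. The letters GTGGGAA, searched on both strands, occurred in the promoter of 1 of these 8 members, *Hey2*, and in 6.38% of all 32851 promoters. *Hey2* held 2 matches, as did 0.256% of all promoters (2 or more), at bases -207 to -201 on the opposite strand and at bases -4 to 3 from the start. Among the other Notch pathway genes 6 of 54 promoters held the motif, those of *Aph1a*, *Hes5*, *Hes7*, *Lfng*, *Psen2*, and *Spen*, and the 2 matches of *Hes5* began at bases -226 and -83. The promoters of *Hey2* (chr10:30842734-30843033, minus strand) and *Hes5* (chr4:154960673-154960972, plus strand) are written 5′ to 3′ in lower case, with the motif on either strand in capitals.
Hey2: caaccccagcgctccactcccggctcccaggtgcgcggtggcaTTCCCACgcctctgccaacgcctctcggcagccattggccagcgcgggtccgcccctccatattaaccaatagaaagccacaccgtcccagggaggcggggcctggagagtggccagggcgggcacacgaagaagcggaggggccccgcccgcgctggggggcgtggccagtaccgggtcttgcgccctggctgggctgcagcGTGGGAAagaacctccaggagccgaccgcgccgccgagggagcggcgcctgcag
Hes5: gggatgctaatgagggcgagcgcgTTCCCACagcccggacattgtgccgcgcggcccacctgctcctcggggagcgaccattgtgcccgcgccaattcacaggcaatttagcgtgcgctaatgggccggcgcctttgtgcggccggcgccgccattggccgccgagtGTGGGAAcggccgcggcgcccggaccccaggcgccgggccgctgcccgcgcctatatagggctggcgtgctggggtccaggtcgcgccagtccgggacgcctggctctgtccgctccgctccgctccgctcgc

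*Hey2* was at 34.2 to 64.5 FPKM in the 6 libraries, whereas *Hes5*, a target best known from neural progenitors, was listed at 0 in 5 of them and at 0.546 in KO0; *Hes5* was named after its values were seen. FPKM counts the fragments of a gene relative to the length of its transcript and to the mapped fragments of the library, so levels of different genes can be compared per length. A match to the motif describes the sequence and does not show that RBPJ was bound there.

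Some facts of the libraries bear on every value below. The targeted gene *Prdm6* was at 41.7, 48.4, and 19.8 FPKM in WT0, WT1, and WT2 and at 48.6, 27.1, and 15.4 in KO0, KO1, and KO2, which overlap. The value covers the whole gene, and the cause of the overlap was not tested. By quantitative PCR, the authors reported lower *Prdm6* in the DA and aorta of these KO mice. KO0 held both *Xist* (81.0 FPKM) and the Y-linked *Ddx3y* (26.4 FPKM), which the RNA of 1 embryo would not hold together. WT0 and KO1 held *Xist* (67.0 and 82.8 FPKM) with *Ddx3y* at 0 and 0.383. WT1, WT2, and KO2 held *Ddx3y* (24.0, 23.4, and 20.1 FPKM) with *Xist* at 0.053, 0.043, and 0.047. These sex-linked transcripts thus differed between libraries within both groups, and the part of sex in the values below was not tested. The total depth of the libraries is unknown. The most frequent ratio of a gene's low value to its low value in WT1 put it at 0.927 to 1.19 times that of WT1. This ratio rested on few genes: 18 of 160 in WT0, 6 of 89 in WT2, 18 of 183 in KO0, 19 of 175 in KO1, and 23 of 258 in KO2. It is therefore only a rough guide to depth. WT2 also held the most genes at 0, 11886 against 8338 to 10313 in the other libraries. Its log2 values correlated least with the rest, at 0.67 to 0.73, where pairs without WT2 were at 0.755 to 0.852. The summed FPKM of 10 smooth muscle markers was 2505 to 5800 in WT and 937 to 2434 in KO, and that of 12 endothelial markers was 352 to 532 in WT and 464 to 680 in KO. Without overlap, 5 of the 10 smooth muscle markers were lower and 4 of the 12 endothelial markers were higher in KO, and none of either list was at 0 in any library. Beside these counts and those of other cell types below, 7.84% of all genes with a mean of 1 FPKM or more were lower and 8.21% were higher without overlap. The summed FPKM of 10 heart muscle markers was 1292 in WT1 and 1448 in KO2, against 53.9 to 503 in the other 4 libraries. The summed FPKM of 9 Schwann cell markers was 14.9 to 40.3 in WT and 47.7 to 174 in KO, and 4 of the 9 were higher without overlap. That of 8 neuron markers was 7.73 to 23.1 in WT and 40.6 to 60.9 in KO (3 of 6 tested higher without overlap), and that of 7 erythroid markers was 3863 to 7581 in WT and 4284 to 24357 in KO (0 of 6 tested without overlap). The part of these other cells in the values below was not tested, and in whole tissue fewer cells of a type and less RNA per cell cannot be told apart.

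The groups were compared with limma on log2(FPKM + 0.1), over the 12955 genes whose mean over the 6 libraries was 1 FPKM or more. P values were adjusted over all of these genes by the Benjamini-Hochberg method. All 10 members passed this filter. None of the 10 had an adjusted p under 0.05, and none had an unadjusted p under 0.05, where 0.00772% and 8.28% of all tested genes did. The KO values lay above every WT value for 3 members, *Notch1*, *Jag1*, and *Jag2*, and below every WT value for 0 members, where 8.21% and 7.84% of all tested genes lay above and below. The median log2 fold change (KO minus WT) was 0.23 over the 10 members and 0.072 over all tested genes, and 9 members had a positive and 1 a negative value. For a single gene, an exact permutation test (two-sided) of 3 libraries against 3 cannot go below p = 0.1.

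**Figure D1:**
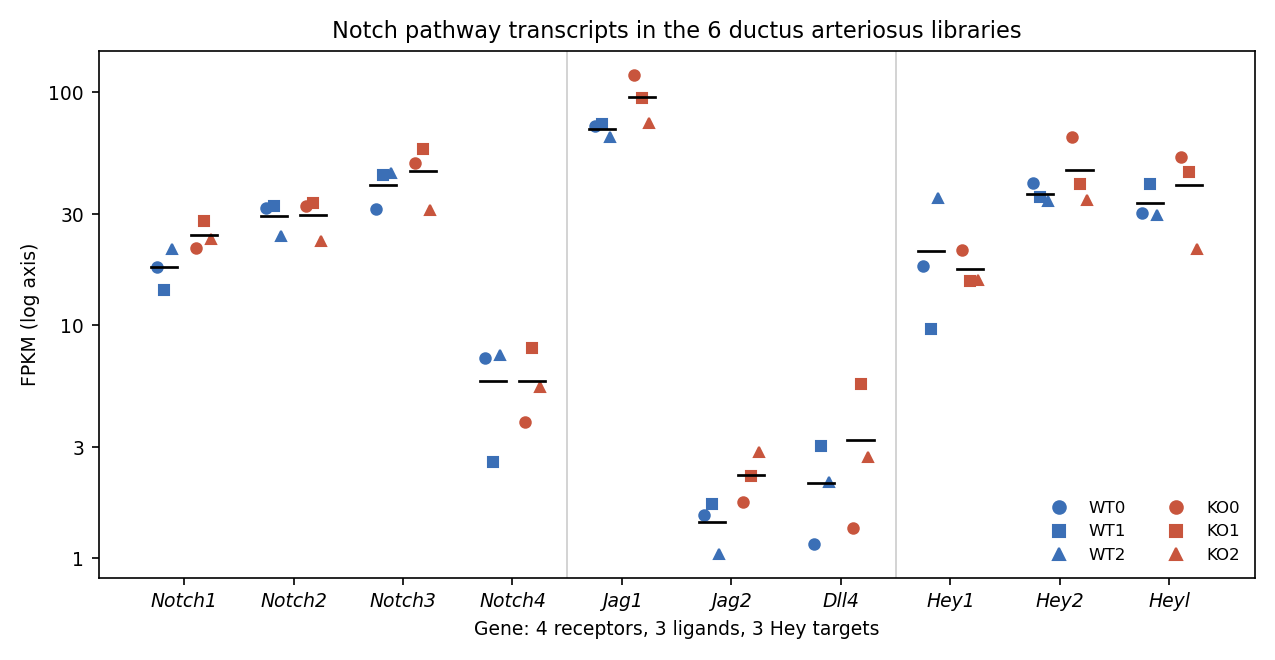
FPKM (log axis) of each Notch gene in each library, with WT in blue, KO in red, a marker shape for each library number, and a black line at the group mean of 3 libraries. *Jag1* was first in every library, and *Dll4* and *Jag2* lay lowest, at 1.04 to 5.58 FPKM.

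*Jag1*, with a mean of 82.7 FPKM over the 6 libraries, was the most abundant member in each of them and lay at the 94.9th percentile of the tested genes. *Notch3* (mean 43.1), *Hey2* (41.6), *Heyl* (36.7), *Notch2* (29.6), *Notch1* (21.0), and *Hey1* (19.2) followed and exchanged places between libraries, so that neighbours in this order do not differ beyond their spread. *Hey1* held rank 3 of 10 in WT2 and rank 6 or 7 elsewhere, *Notch1* held rank 4 in KO2, and *Heyl* ranged from rank 3 to 6. *Notch4* (5.77) was eighth or ninth in every library. *Dll4* (2.66) and *Jag2* (1.85) were at the 15.0th and 8.54th percentiles and did not differ beyond their spread. *Jag1* and *Notch3* thus stood well above *Notch4* and *Dll4*, the more strictly endothelial members, in every library of both genotypes.

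Of the receptors, *Notch3* (chromosome 17 of GRCm38, from 32120820 to 32166896, minus strand) was at 31.6, 44.1, and 45.0 FPKM in WT0, WT1, and WT2 and at 49.5, 57.1, and 31.4 in KO0, KO1, and KO2. The groups overlapped, because KO2 was the lowest library and KO0 and KO1 were the highest. The log2 fold change was 0.17 (standard error 0.27, 95% interval -0.46 to 0.79, adjusted p = 0.847 from limma). The interval reaches well to both sides of 0, so these libraries do not show that *Notch3* was the same in both groups. By contrast, the contractile gene *Myh11*, which encodes smooth muscle myosin heavy chain, was lower in every KO library than in every WT library, with a log2 fold change of -1.81 (95% interval -2.88 to -0.74, adjusted p = 0.463 from limma). In their own analysis of DA RNA-Seq, the authors named *Myh11* and *Tagln* as most downregulated in KO. They also reported lower *Myh11* in the KO DA by quantitative PCR and by staining of the protein.

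*Notch1* (chromosome 2, from 26457902 to 26503822, minus strand), which holds endothelial cells to an arterial and quiescent state, was at 17.7, 14.2, and 21.2 FPKM in WT and at 21.5, 28.0, and 23.5 in KO. Every KO library lay above every WT library, although KO0 and WT2 were close. Means were 17.7 ± 3.52 (SD, n = 3) in WT and 24.3 ± 3.33 (SD, n = 3) in KO. The log2 fold change was 0.47 (standard error 0.23, 95% interval -0.076 to 1.01, adjusted p = 0.625 from limma, two-sided exact permutation p = 0.1). The endothelial markers *Pecam1*, an adhesion molecule of endothelial junctions, and *Cdh5*, which encodes VE-cadherin, had log2 fold changes of 0.48 (95% interval -0.15 to 1.10) and 0.44 (95% interval -0.46 to 1.33), and neither passed the test (adjusted p = 0.657 and 0.735).

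*Notch2* (chromosome 3, from 98013538 to 98150367, plus strand), a receptor of SMCs that cooperates with *Notch3*, was the steadiest member, with a highest value 1.47 times its lowest. It was at 31.9, 32.4, and 24.3 FPKM in WT and at 32.6, 33.6, and 22.9 in KO, so the same spread was found within each group. Its log2 fold change was 0.00072 (standard error 0.23, 95% interval -0.53 to 0.53). *Notch4* (chromosome 17, from 34564286 to 34588543, plus strand), an endothelial receptor, was at 7.27, 2.58, and 7.44 FPKM in WT and at 3.86, 8.02, and 5.44 in KO, and its interval was wide (log2 fold change 0.086, 95% interval -1.17 to 1.34).

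Per length, *Notch3* made up 35.7% to 47.3% of the summed receptor FPKM in WT and 37.7% to 46.1% in KO. *Notch2* made up 24.8% to 36.1% and 26.5% to 30.4%, *Notch1* 15.2% to 21.7% and 20.0% to 28.2%, and *Notch4* 2.77% to 8.22% and 3.59% to 6.53%, in the same order. The shares of all 4 receptors overlapped between the groups. *Notch3* was the largest share in 5 libraries, and in WT0 *Notch2* was slightly larger (36.1% against 35.7%).

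**Figure D2:**
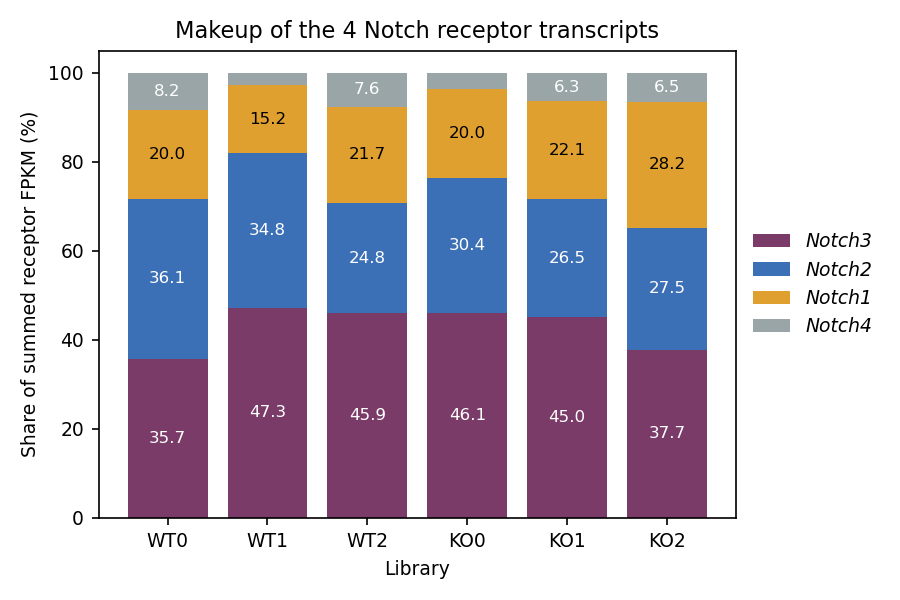
Share (%) of each receptor in the summed FPKM of the 4 Notch receptors, as 1 stacked bar per library. *Notch3* held 35.7% to 47.3% in all 6 libraries, and *Notch1* was largest in KO2, at 28.2%.

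Of the ligands, *Jag1* (chromosome 2, from 137081451 to 137116520, minus strand) was at 71.4, 72.9, and 64.1 FPKM in WT and at 119, 94.3, and 74.2 in KO. The WT libraries lay close together and the KO libraries were spread above them, the lowest, KO2, only just. Means were 69.5 ± 4.70 (SD, n = 3) and 95.8 ± 22.5 (SD, n = 3). The log2 fold change was 0.44 (standard error 0.20, 95% interval -0.032 to 0.91, adjusted p = 0.611 from limma, two-sided exact permutation p = 0.1), the lowest adjusted p of the 10 members. Without KO0, the highest library, the log2 fold change of *Jag1* was 0.27. *Jag2* (chromosome 12, from 112907803 to 112929812, minus strand), a second Jagged ligand, was at 1.53, 1.71, and 1.04 FPKM in WT and at 1.74, 2.25, and 2.84 in KO. The groups did not overlap, but WT1 and KO0 were nearly equal, and the log2 fold change of 0.64 had a 95% interval of -0.93 to 2.21. With quantile normalization the *Jag2* values overlapped, which left 2 members without overlap.

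*Dll4* (chromosome 2, from 119325784 to 119335666, plus strand) was at 1.15, 3.03, and 2.13 FPKM in WT and at 1.34, 5.58, and 2.72 in KO. KO1 was the highest library, and KO0 lay beside the lowest, WT0. The log2 fold change of 0.47 (standard error 0.74, 95% interval -1.26 to 2.19) was -0.031 without KO1. It was 0.96 without KO0. The exons of *Dll4* overlap those of *Gm14207* on the other strand, which was listed at 0, 0, and 7.52 FPKM in WT and 1.20, 0, and 1.04 in KO. Exons of *Notch1* (*0610009E02Rik* and *Gm13568*), *Notch2* (*Gm42820*), and *Notch3* (*Gm17276*) also overlap those of genes on the other strand, which have no FPKM value here. Strand-specific counting is not stated, so reads of overlapping genes may not have been told apart.

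Of the targets, *Hey1* (chromosome 3, from 8663359 to 8667038, minus strand) was at 17.9, 9.68, and 35.0 FPKM in WT and at 21.1, 15.6, and 15.7 in KO. It was the only member with a negative log2 fold change (-0.079, 95% interval -1.11 to 0.95), and the value was 0.39 without WT2, the highest library. *Hey2* (chromosome 10, from 30832359 to 30842783, minus strand), which maintains arterial identity and is also made in ventricular heart muscle, was at 40.7, 35.5, and 34.2 FPKM in WT and at 64.5, 40.3, and 34.5 in KO. KO0 stood above the other 5 libraries, which lay between 34.2 and 40.7. In KO0 the heart muscle markers summed to 167 FPKM, against 1292 in WT1 and 1448 in KO2. These sums mix atrial and ventricular genes, and the ventricular markers *Myl2* and *Myl3*, named after their values were seen, ran otherwise. *Myl2* was at 17.4 FPKM in KO0, 16.3 in WT1, and 20.9 in KO2, and *Myl3* was at 42.6, 6.71, and 35.8. Both were highest in WT2, at 124 and 58.5. The part of heart muscle in the *Hey2* values was not tested. The log2 fold change of *Hey2* was 0.29 (standard error 0.25, 95% interval -0.30 to 0.88) and 0.024 without KO0. *Heyl* (chromosome 4, from 123233556 to 123249870, plus strand), the Hey gene most closely tied to *Notch3* in mural cells, was at 30.4, 40.3, and 29.7 FPKM in WT and at 53.0, 45.7, and 21.2 in KO. KO0 and KO1 were the highest libraries and KO2 the lowest, as for *Notch3*, and the log2 fold change was 0.17 (standard error 0.35, 95% interval -0.64 to 0.98) and -0.088 without KO0. For all 3 targets the group means differed by less than the larger of the group SDs.

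KO2, the library with the lowest summed smooth muscle markers (937 FPKM), was the lowest of the 6 for *Notch2*, *Notch3*, and *Heyl*. The other libraries did not follow that order. KO1, with a sum of 1835, was the highest for *Notch2* and *Notch3*. WT0, with the highest sum (5800), held *Notch3* at 31.6 FPKM, close to 31.4 in KO2. The part of smooth muscle content in these values was not tested. Without KO2, the KO values of 6 members lay above every WT value (*Heyl* 0.57, *Jag1* 0.61, *Jag2*, *Notch1* 0.49, *Notch2* 0.18, and *Notch3* 0.42 on the log2 scale), where 13.2% of all genes tested in that fit did, and none had an adjusted p under 0.05. Without both libraries high in heart muscle transcripts, WT1 and KO2, 6 members lay above (*Heyl*, *Jag1*, *Jag2*, *Notch1*, *Notch2*, and *Notch3*), where 20.1% of all genes did. Leaving out any other library kept the count at 3. Without KO0, the library with both *Xist* and *Ddx3y*, the log2 fold changes were 0.55 for *Notch1*, -0.077 for *Notch2*, 0.091 for *Notch3*, and 0.34 for *Notch4*. They were 0.27 for *Jag1*, 0.81 for *Jag2*, 0.96 for *Dll4*, -0.22 for *Hey1*, 0.024 for *Hey2*, and -0.088 for *Heyl*, and none had an adjusted p under 0.05.

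**Figure D3:**
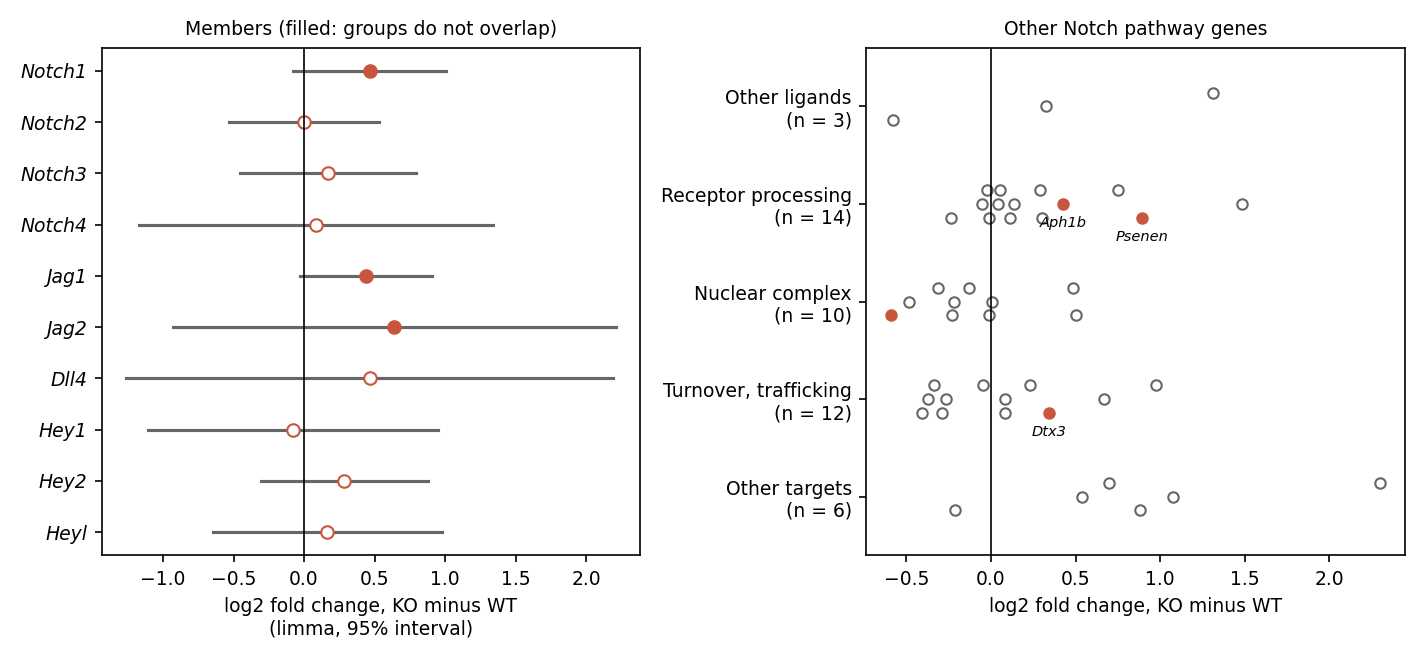
Left, log2 fold change (KO minus WT) of the 10 members from limma with its 95% interval. Right, the log2 fold changes of 45 other Notch pathway genes, 1 point per gene in 5 groups. Filled points are genes whose WT and KO values do not overlap, 3 members and 4 other genes, and the 3 of these that were higher in KO are labelled.

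Smooth muscle and endothelial Notch transcripts were also set against each other within a library. *Notch3* exceeded *Notch1* in all 6 libraries. The difference in log2(FPKM + 0.1) was 0.83, 1.63, and 1.08 in WT and 1.20, 1.03, and 0.42 in KO, so the groups overlapped and the smallest gap was in KO2. The mean difference was 1.18 ± 0.41 (SD, n = 3) in WT and 0.88 ± 0.41 (SD, n = 3) in KO, a change of -0.30 that is smaller than the spread between libraries and was 0.16 without WT1 and KO2. It was -0.46 without KO0, -0.074 without WT1, -0.065 without KO2, and -0.47 without WT0. *Jag1* exceeded *Dll4* by 5.84, 4.54, and 4.85 on the log2 scale in WT and by 6.37, 4.06, and 4.72 in KO, with means of 5.08 ± 0.68 (SD, n = 3) and 5.05 ± 1.19 (SD, n = 3). The change between the means was -0.027, but it rested on single libraries, which spread widely. It was -0.69 without KO0, -0.29 without WT1, -0.14 without WT2, 0.14 without KO2, 0.35 without WT0, 0.47 without KO1, and 0.47 with quantile normalization.

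Against the contractile genes of the same library the levels differed more. On the log2 scale, *Notch3* minus *Myh11* was -4.56, -2.68, and -2.77 in WT and -1.57, -1.45, and -1.06 in KO, without overlap. *Jag1* minus *Myh11* and *Heyl* minus *Myh11* did not overlap either, with mean shifts of 2.25 and 1.98. The same held for 68.3% of all tested genes when set against *Myh11*, so these pairs tell little of the members beyond the lower *Myh11*. Against *Acta2*, which encodes α-smooth muscle actin, *Jag1* and *Heyl* lay higher in KO without overlap and *Notch3* overlapped, where 18.9% of all tested genes lay higher. Mean shifts against *Acta2* were 1.29 for *Jag1*, 1.01 for *Heyl*, and 1.01 for *Notch3*.

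Against the endothelial markers the mean shifts were smaller. *Notch1* minus *Pecam1* was -2.98, -2.78, and -3.18 in WT and -3.11, -3.06, and -2.80 in KO on the log2 scale, with means of -2.98 ± 0.20 (SD, n = 3) and -2.99 ± 0.17 (SD, n = 3). *Notch1* minus *Cdh5* spread more widely, at -1.74, -2.23, and -1.02 in WT and -0.89, -1.85, and -2.17 in KO. The mean shifts of *Notch1* and *Dll4* against *Pecam1* and *Cdh5* lay between -0.010 and 0.028, and those of *Notch4* were -0.39 and -0.35. For *Dll4* the single libraries spread widely, from -7.01 to -4.97 against *Pecam1* and from -5.57 to -4.15 against *Cdh5*, so its small mean shifts do not show that it followed these markers. None of these 6 pairs lay higher in KO without overlap, where 0.973% of all tested genes did against *Pecam1* and 1.79% against *Cdh5*. All pairs with a marker gene were chosen after the values were seen and are given without a test.

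**Figure D4:**
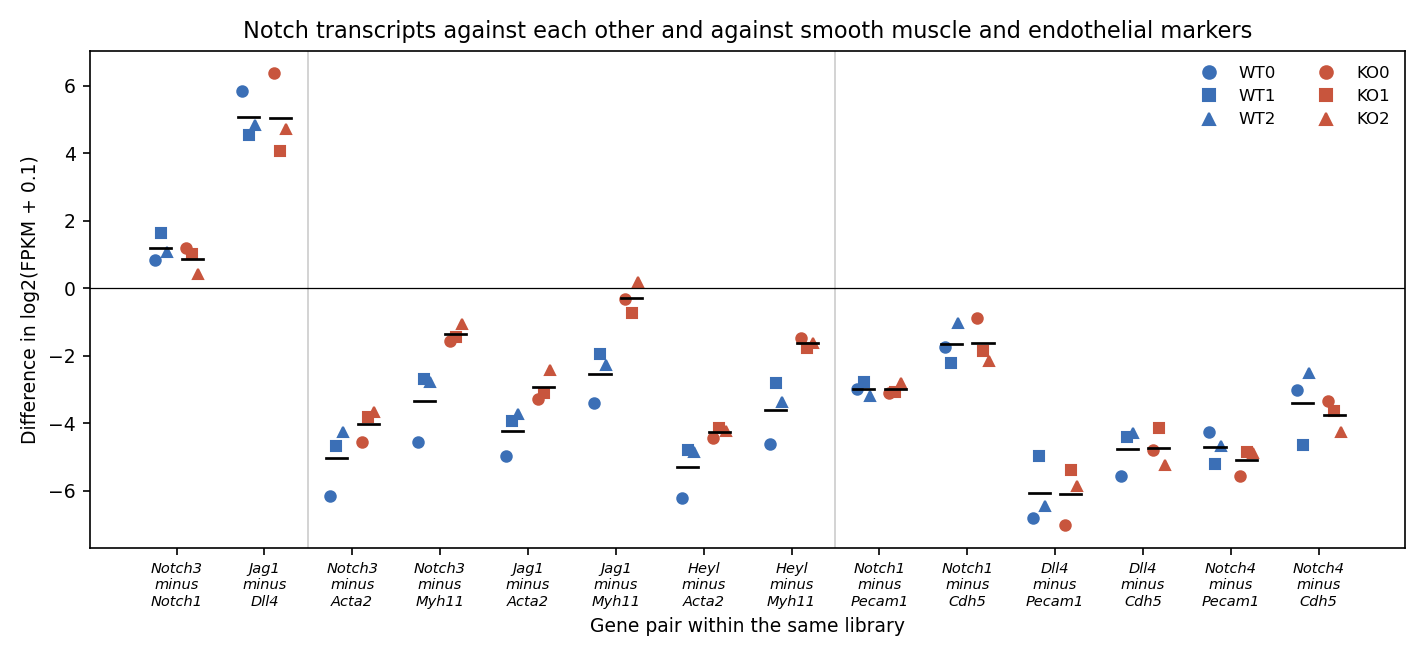
Difference in log2(FPKM + 0.1) between the first and the second gene of a pair within each library, with WT in blue, KO in red, and a black line at each group mean. *Notch3*, *Jag1*, and *Heyl* lay higher against *Myh11* in KO by 1.98 to 2.25, whereas *Notch1* minus *Pecam1* lay between -3.18 and -2.78 and *Notch1* minus *Cdh5* between -2.23 and -0.89.

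Across the 6 libraries, the pair of members with the most similar profile was *Jag1* and *Hey2*, whose log2 values, each centred on its own mean, had a root mean square difference of 0.14. *Notch3* was closest to *Heyl* among the members, at 0.26, and *Hey1* and *Dll4* were least alike, at 1.07. Among all tested genes, those closest to *Notch3* were *Syngr2* (0.081), *Ftl1* (0.095), *Cped1* (0.10), *Sfxn1* (0.11), and *Impdh1* (0.11). Those closest to *Notch1* were *Xpc* (0.052), *Elovl1* (0.084), *Paqr8* (0.085), *Klhl24* (0.085), and *Acer3* (0.086). These values rest on 6 libraries and describe likeness only.

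Of 50 other genes of the pathway, 45 were tested and 0 had an adjusted p under 0.05. By unadjusted p under 0.05, 1 was higher and 1 was lower, where 8.28% of all tested genes passed in either direction. The groups did not overlap for 4 of the 45, 3 higher and 1 lower, a share no larger than the 8.21% higher and 7.84% lower of all tested genes together, and the median log2 fold change was 0.086, close to that of all genes. *Psenen*, a subunit of γ-secretase, was at 19.7, 26.3, and 21.4 FPKM in WT and at 49.9, 26.5, and 53.9 in KO, with WT1 and KO1 nearly equal. Its log2 fold change was 0.89 (standard error 0.30, adjusted p = 0.545 from limma), and its exons overlap those of *U2af1l4* on the other strand, which was at 17.0 to 40.9 FPKM in WT and 28.9 to 41.1 in KO. *Aph1b*, another γ-secretase subunit, and *Dtx3*, of the Deltex family of ubiquitin ligases, were also higher without overlap, with log2 fold changes of 0.43 and 0.34.

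*Rbpj*, the DNA-binding protein of the pathway, which was named after its values were seen, was at 22.4, 32.3, and 42.2 FPKM in WT and at 30.3, 25.4, and 30.5 in KO and overlapped (log2 fold change -0.13, 95% interval -0.73 to 0.47).

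By mean FPKM, the 4 most abundant of the other genes were *Dlk1*, a noncanonical ligand, *Mib1*, a ubiquitin ligase that activates Notch ligands in the sending cell, *Adam10*, which makes the first activating cut of the receptor, and *Psenen*. *Dlk1* varied from 65.0 to 121 FPKM in WT and from 27.6 to 91.6 in KO. *Mib1* (39.5 to 46.4 and 39.4 to 53.4) and *Adam10* (27.5 to 46.1 and 39.0 to 51.7), like *Dlk1*, overlapped between WT and KO.

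By group, 14 tested genes of receptor processing had a median log2 fold change of 0.12, with 2 higher and 0 lower without overlap. Of all tested genes, 8.21% were higher and 7.84% lower without overlap. The 10 genes of the nuclear complex had a median of -0.17, and the 12 of turnover and trafficking a median of 0.019, with 1 higher and 0 lower. The 6 tested genes among the other targets had a median of 0.79, but all of them overlapped, and *Hes6* and *Myc* were each listed at 0 in WT2, which widens their values on the log2 scale. Of these, *Hes1* and *Nrarp* were named after their values were seen. *Hes1*, the Hes gene most widely used by Notch, was at 13.6, 3.59, and 9.68 FPKM in WT and at 8.30, 7.41, and 4.93 in KO. *Nrarp*, a target that dampens the pathway, was at 9.38, 12.9, and 2.48 and at 14.9, 21.0, and 6.18.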

How the data were processed

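Bulk RNA-Seq of E17.5 DA was carried out on 3 WT and 3 KO libraries, grouped and numbered by their titles, with 0 columns left unmatched. After trimming of the reads, the authors used TopHat2 for alignment to mm10 and deposited FPKM values made with Cufflinks, 1 value per gene and library. Tool versions and the gene annotation are not given in the sources used here. FPKM values hold no counts, so no counting interval was made.

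Genes whose mean reached 1 FPKM were tested on log2(FPKM + 0.1) with limma 3.58.1 in R 4.3.3 (two-sided, eBayes with trend), and p values were adjusted by the Benjamini-Hochberg method over all 12955 genes, with a threshold of 0.05. Cuffdiff needs aligned reads and was not run. The fit was run on simulated data in which the planted changes were larger than any estimated for the members. It therefore cannot say whether changes as small as those of the members would be called. Alternatives were a pseudocount of 1, a minimum mean FPKM of 5, no filter, quantile normalization, no trend, no moderation, a replicate block, and each library left out. The fit without WT1 and KO2 was added after the data were seen. The members, gene lists, and tests were chosen with earlier results of these data known. Named genes are all 10 members, the 4 most abundant other pathway genes, up to 4 in each direction with an unadjusted p under 0.05 and no overlap (if fewer, those of largest fold change without overlap), the markers *Acta2*, *Myh11*, *Pecam1*, and *Cdh5*, and the 5 genes closest in profile to *Notch3* and to *Notch1*. A gene that this rule would name is not reported here. Gene positions and promoters came from RefSeq (GRCm38.p6), and strand and exon overlaps from GENCODE vM21 (GRCm38).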

Additional observations from a re-analysis of the deposited data

How the results depend on the processing

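In the 14 alternatives no member and no other pathway gene reached an adjusted p under 0.05, and the count stayed at 0 for both with the replicate block, where the lowest adjusted p from limma was 0.591 for the members and 0.551 for the other genes. The sources used here do not say whether the shared numbers pair the libraries. The correlations of same-numbered deviations from the group means were 0.12, -0.076, and -0.0088. With 3 libraries a group such deviations offset one another, so these correlations cannot decide it. The count of 3 members without overlap lay between 3 and 6 when each library was left out and was 6 without WT1 and KO2. The change in *Notch3* minus *Notch1* was 0.16 without WT1 and KO2. *Notch1*, *Jag1*, *Jag2*, and *Hey2* kept a positive log2 fold change in all alternatives in which they were tested. *Jag2* and *Dll4* have no value where the minimum mean was 5 FPKM. Leaving out 1 library gave log2 fold changes from -0.13 to 0.18 for *Notch2*, from -0.011 to 0.42 for *Notch3*, from -0.41 to 0.34 for *Notch4*, from -0.031 to 0.96 for *Dll4*, from -0.53 to 0.39 for *Hey1*, and from -0.088 to 0.57 for *Heyl*, so that each of these changed sign, *Notch2* without WT2 (-0.13), KO0 (-0.077), or KO1 (-0.098), *Notch3* without KO1 (-0.011), *Notch4* without WT1 (-0.41) or KO1 (-0.18), *Dll4* without KO1 (-0.031), *Hey1* without WT2 (0.39), and *Heyl* without KO0 (-0.088). *Notch4* was also -0.39 without WT1 and KO2. The causes were not tested. With 3 libraries a group, the standard error of the log2 fold change had a median of 0.41 over all tested genes, which limits what can be called.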

Other observations

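Among 8 markers of arterial endothelium, which Notch signalling in endothelial cells is known to sustain, 3 were higher in every KO library than in every WT library and 0 were lower, where 8.21% and 7.84% of all tested genes were, and none had an adjusted p under 0.05 in limma. Over the 8, 4 log2 fold changes were positive and 4 negative, with a median of 0.066. *Gja4*, which encodes connexin 37, was at 19.9, 22.8, and 17.9 FPKM in WT and at 55.8, 63.0, and 28.4 in KO (log2 fold change 1.20, standard error 0.31, unadjusted p = 0.00536, adjusted p = 0.476). *Gja5*, which encodes connexin 40, was at 18.2, 18.7, and 17.8 FPKM and at 19.1, 36.4, and 23.8 (log2 fold change 0.48, adjusted p = 0.650). *Sox17*, a transcription factor of arterial endothelium, was at 2.11, 1.05, and 2.47 FPKM and at 3.53, 4.03, and 4.76 (log2 fold change 1.16, adjusted p = 0.624). The other 5, *Efnb2*, *Nrp1*, *Bmx*, *Cxcr4*, and *Unc5b*, overlapped between the groups, with log2 fold changes from -1.83 to 0.25. The separate list of 12 endothelial markers shares only *Sox17* with these 8, so *Sox17* enters the counts of both lists. Among the 12, *Cldn5*, which encodes the tight junction protein claudin 5, was at 9.91, 11.6, and 14.6 FPKM in WT and at 27.9, 48.2, and 39.0 in KO (log2 fold change 1.64, standard error 0.27, adjusted p = 0.298), without overlap.

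Of 5 pericyte markers tested, 0 were higher and 2 were lower without overlap, where 8.21% and 7.84% of all tested genes were, and none had an adjusted p under 0.05. *Kcnj8*, the pore of an ATP-sensitive potassium channel, was at 32.8, 29.0, and 31.8 FPKM in WT and at 15.6, 15.2, and 13.2 in KO (log2 fold change -1.09, standard error 0.19, adjusted p = 0.317 from limma). *Abcc9*, which encodes the channel's regulatory subunit, had a log2 fold change of -0.60 (adjusted p = 0.574). The other 3 overlapped between the groups, *Pdgfrb*, a growth factor receptor of mural cells, at -0.091, *Rgs5* at -0.12, and *Cspg4* at -0.19 on the log2 scale. *Cldn5*, *Kcnj8*, and the other genes here were named after their values were seen.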
